A study of Mus musculus with 80 samples.

Results

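The regions described here are 580 autosomal bins of 10 kb that lost H3K27me3 peak coverage in control uterine fibroblasts after gestation day (GD) 5.5. They were chosen by measured values: the percent of a bin lying inside peaks in the control list 5WT had to exceed that in both later control lists, 8WT and 14WT_IIS, by at least 40 points. They are 580 of 164079 autosomal bins that held a peak in any of the 12 lists of the Kdm6b set, or 0.353%. The mirror rule, a gain of 40 points in both later lists, held in 759 bins.

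The study profiled H3K27me3 by CUT&RUN, in which an antibody tethers a nuclease to marked chromatin, in mouse fibroblasts that were bead-purified from digested uterine tissue. Its 80 samples include 48 that enter 16 peak lists, each pooling 3 samples of 1 group, and the other 32 samples were not analysed here. Every animal of the Kdm6b set carried floxed Kdm6b alleles (Kdm6b f/f) and was mated with a B6 male. The controls had no Cre by label. Lists 5WT, 8WT and 14WT_IIS came from inter-implantation sites (IIS) of control females on GD5.5, GD8.5 and GD14.5. Lists 14WT and 18WT came from implantation sites (IS) of controls on GD14.5 and GD18.5, and 14FRA_WT from GD14.5 IS of the Kdm6b f/f controls to the Pdgfra-Cre animals. Lists 5KO, 8KO, 14KO_IIS, 14KO and 18KO are the matching Pgr-cre Kdm6b f/f females, called Kdm6b cKO in part of the labels, and 14FRA_KO holds Pdgfra-cre Kdm6b f/f females at GD14.5 IS. Pgr-Cre acts in cells that express the progesterone receptor, which include uterine cells other than fibroblasts, and Pdgfra-Cre acts in Pdgfra-expressing cells such as fibroblasts. A separate set of 4 lists came from B6CBAF1/J females: USC-0 (GD0.5 uterus), MSC-5 (GD5.5 IIS after natural mating), MSC-V-5 (GD5.5 uterus after mating with a vasectomized male) and USC-P4 (uterus of non-pregnant females given progesterone). Ages were not given.

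H3K27me3 is laid down by Polycomb repressive complex PRC2 and marks silenced chromatin, often in broad domains. Kdm6b encodes a demethylase that removes the mark. In the pregnant uterus, progesterone keeps the muscle quiet and supports the decidual response of stromal fibroblasts, and the genes that respond to it include transcription factors and steroid-receptor cofactors.

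With 1 list per group no test was possible, and no p-value is given. A margin of 40 points served as the size rule throughout, and counts of eroded bins that met it are set beside the share of all tested bins that did. Values of 5WT, 8WT and 14WT_IIS describe the choice of the bins and support nothing. The 9 other lists of the Kdm6b set and the B6CBAF1/J lists did not enter the rule. Levels are percent of a bin inside the union of peaks, SDs are over bins and not over animals, and neighbouring bins are not independent. The lists cover 609 to 740 Mb in the Kdm6b set. Their peaks are weak: the median fold over background per list was 1.12 to 1.15 and the median −log10 p 0.611 to 0.667. The sources used here give no read depth, so no depth-based interval can be given. As a check of the cell label, 13 fibroblast marker genes had on average 4.18% to 8.62% of their span inside peaks in the 12 lists, against 77.6% to 85.2% for 15 epithelial, 61.8% to 66.8% for 15 immune, 51.3% to 60.5% for 10 trophoblast, 37% to 50.9% for 13 endothelial and 20.7% to 29% for 10 smooth muscle marker genes. Smooth muscle genes stood closest to the fibroblast genes, with 4 or 5 of the 10 at 0. No gene of the 6 marker lists (fibroblast, epithelial, endothelial, immune, smooth muscle and trophoblast) lay over an eroded bin. Only 0.9% of all autosomal protein-coding genes did, so this absence tells nothing about the cell label. The lists give no view of the Kdm6b deletion itself.

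Promoters are shown first, so that peak calls can be set beside the bases at start sites. Broad, weak peaks do not place a loss at single bases. The 250 bases before the start site are printed 5′ to 3′ on the gene's strand, from RefSeq (GRCm38.p6, the mm10 assembly), with CG pairs in capitals. These 5 genes were picked after their values were seen: Cdkn1a, which encodes the cell cycle inhibitor p21, S100a16, a calcium-binding protein gene, and Vegfc, the lymphatic growth factor gene, as examples of a promoter that was inside a 5WT peak and outside the 8WT and 14WT_IIS peaks; Nfil3 and Greb1 as examples of a CpG-rich promoter outside control peaks at every stage, with the lost peak beside it.
Cdkn1a, first start site, chr17:29090729-29090978, plus strand: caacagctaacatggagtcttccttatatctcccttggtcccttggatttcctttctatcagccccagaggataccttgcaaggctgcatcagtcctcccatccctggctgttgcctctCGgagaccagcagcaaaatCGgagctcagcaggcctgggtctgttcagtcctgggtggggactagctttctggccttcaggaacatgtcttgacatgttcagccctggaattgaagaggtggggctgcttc
Cdkn1a, second start site, chr17:29093519-29093768, plus strand: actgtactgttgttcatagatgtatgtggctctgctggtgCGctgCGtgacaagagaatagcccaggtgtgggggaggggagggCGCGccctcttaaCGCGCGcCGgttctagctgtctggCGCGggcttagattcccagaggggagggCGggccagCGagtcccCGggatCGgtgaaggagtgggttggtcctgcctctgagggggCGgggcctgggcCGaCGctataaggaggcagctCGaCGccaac
S100a16, chr3:90540896-90541145, plus strand: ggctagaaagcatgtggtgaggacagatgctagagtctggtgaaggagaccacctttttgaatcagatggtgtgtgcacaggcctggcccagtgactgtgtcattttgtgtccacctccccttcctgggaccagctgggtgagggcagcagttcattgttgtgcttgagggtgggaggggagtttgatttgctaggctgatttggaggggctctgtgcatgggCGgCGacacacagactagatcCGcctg
Vegfc, chr8:54077282-54077531, plus strand: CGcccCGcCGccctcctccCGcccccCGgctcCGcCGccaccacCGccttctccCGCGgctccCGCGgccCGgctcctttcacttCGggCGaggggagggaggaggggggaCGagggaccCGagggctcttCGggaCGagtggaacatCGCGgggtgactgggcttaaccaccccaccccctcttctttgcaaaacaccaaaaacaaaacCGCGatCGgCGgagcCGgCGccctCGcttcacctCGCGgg
Nfil3, chr13:52981040-52981289, minus strand: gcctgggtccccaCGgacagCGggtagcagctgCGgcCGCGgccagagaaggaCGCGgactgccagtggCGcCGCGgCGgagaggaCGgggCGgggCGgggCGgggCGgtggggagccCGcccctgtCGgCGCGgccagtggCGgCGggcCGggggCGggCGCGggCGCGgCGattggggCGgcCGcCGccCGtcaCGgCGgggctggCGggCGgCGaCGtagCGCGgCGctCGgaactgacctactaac
Greb1, chr12:16800887-16801136, minus strand: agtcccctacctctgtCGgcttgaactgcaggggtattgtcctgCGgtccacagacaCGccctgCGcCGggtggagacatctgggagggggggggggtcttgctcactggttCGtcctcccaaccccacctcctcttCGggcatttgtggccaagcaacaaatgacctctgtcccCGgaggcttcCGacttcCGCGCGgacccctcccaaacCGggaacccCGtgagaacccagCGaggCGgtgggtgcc
The first Cdkn1a start site has 2 CG pairs in these 250 bases and the second has 19. Both were wholly inside a peak in 5WT and 5KO and wholly outside in all 5 other control lists. In the knockouts they parted: at the first, 8KO still had full coverage and 14KO_IIS none, and at the second 8KO had none and 14KO_IIS full coverage. S100a16 (3 CG pairs) had full coverage in 5WT and 5KO and none in the other 10 lists of the set. Vegfc (30 CG pairs) was covered in 5WT in full, in 5KO to 32.3% and in 14KO in full, and was outside peaks elsewhere. The Nfil3 promoter (43 CG pairs) lay outside peaks in all 12 lists, although the bin around it went from 56.95% in 5WT to 8.9% in 8WT. The Greb1 promoter (16 CG pairs) was inside a peak in 5KO alone.

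In all, 41 of the 563 eroded bins on chromosomes with tabulated start sites held a start site of a protein-coding gene, or 7.28%, against 6.99% of all tested bins and 8.81% of bins at 40% or more in 5WT. They held 49 start sites of 44 genes. Of these 49 promoters, from 250 bases before to 50 after the start site, 21 were wholly inside a 5WT peak and wholly outside those of 8WT and 14WT_IIS. Of the 21, 14 were also wholly inside a 5KO peak, 14 were at 0 in 14WT, 18WT and 14FRA_WT alike, 11 were at 0 in 8KO, 10 in 14KO_IIS and 17 in 18KO. Promoters at 0 or wholly inside a peak were not counted elsewhere, so these counts have no background. Mean coverage over all promoters was low in every list of the set, 25.5% to 28.5%. Over promoters in bins at 40% or more in 5WT it was 70.3% to 74.2%. The median GC content of the 49 was 59.7% and the median number of CG pairs 11, and 55.1% had at least 10 CG pairs, against 57% GC, 14 pairs and 57.9% over all 20085 promoters and 55.7% GC, 10 pairs and 50.4% over the 6439 in bins at 40% or more in 5WT. The palindrome GNACANNNTGTNC, which steroid receptors of the progesterone receptor class can bind, occurred in 0 of the 49 and in 0.458% of all promoters. The hexamer TGTTCT, its arm, on either strand (also read as AGAACA), occurred in 11 of the 49, or 22.4%, and in 16.1% of all promoters. Of these 11 start sites 4 belong to Slc7a7 and partly overlap, and without that gene the share was 7 of 45, or 15.6%.

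In the control lists that the rule did not use, the bins stayed low. Their mean level was 18.3% (SD 20.9, n = 580 bins) in 14WT, 16.5% (SD 20.6) in 18WT and 18.2% (SD 19.5) in 14FRA_WT, with medians of 10.5%, 7.67% and 11.8%. For the lists that chose them, the means were 70.5% in 5WT, 18.6% in 8WT and 12% in 14WT_IIS. Over all tested bins these 6 lists had means of 31.7% to 39.3%, so the eroded bins were above the average bin in 5WT and below it in each of the 5 later lists. The bins that started at 40% or more in 5WT, 65049 in number, kept means of 67.1% to 74.4% in the later control lists.

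**Figure D1:**
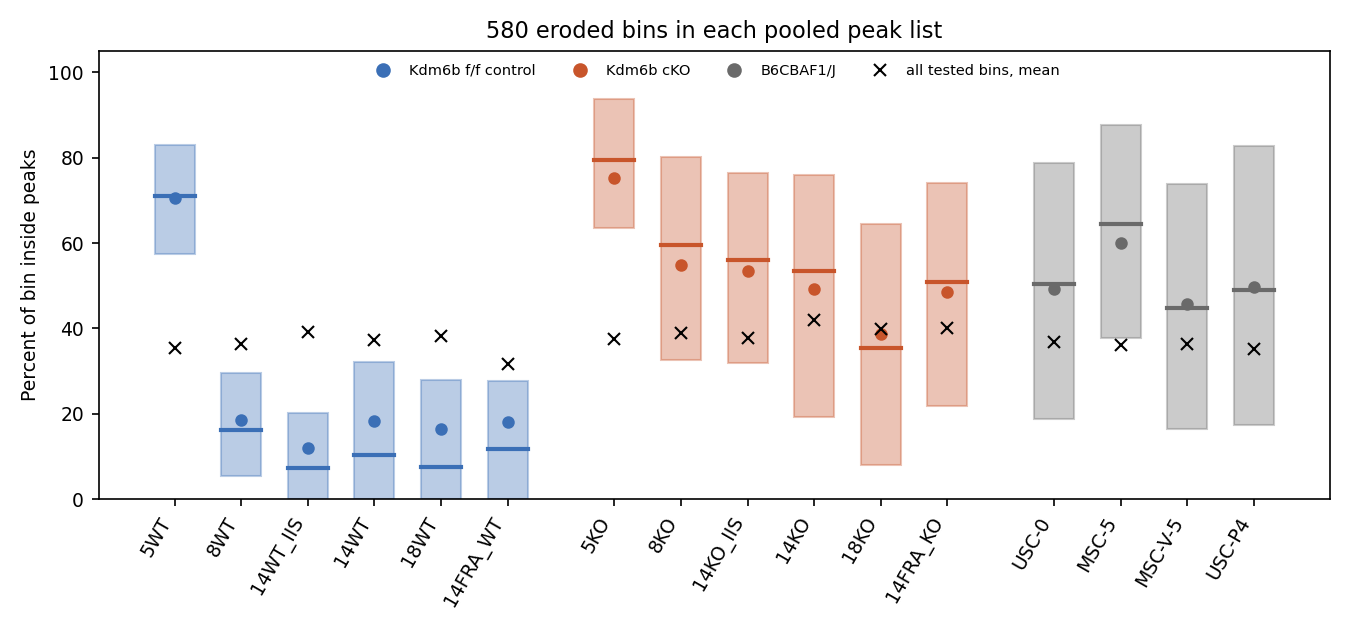
Percent of the bin inside peaks in each pooled list for the 580 eroded bins, with boxes from the lower to the upper quartile, a line at the median, a dot at the mean and a cross at the mean of all tested bins. Controls drop from a mean of 70.5% to between 12% and 18.6%, while the knockout means lie between 38.7% and 75.2%; the B6CBAF1/J lists were made with other settings and are to be compared only among themselves.

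A level at least 40 points under 5WT was found in 14WT for 436 of the 580 bins (75.2%, against 1.25% of all tested bins), in 18WT for 457 (78.8%, against 1.58%) and in 14FRA_WT for 440 (75.9%, against 2.15%). All 3 lists met the margin in 359 bins (61.9%, against 0.694%). These shares lean on 5WT, which the rule selected for high values and which all 5 control contrasts share, as the knockout contrasts share 5KO. The implantation-site lists differ from 5WT in tissue as well as in day, and the effects of these cannot be told apart. In absolute terms, 304 bins (52.4%, against 39.4% of all tested bins and 1.71% of bins at 40% or more in 5WT) were under 20% in all 3 implantation-site lists. At 0 in all 3 were 114 bins (19.7%), a share near the 17.04% of all tested bins, though only 0.37% of bins at 40% or more in 5WT were. In 39 bins (6.72%, against 32.6% of all tested bins) all 3 lists were at 40% or more, and in 26 (4.48%, against 92.4%) at least 1 of the 3 was back to within 10 points of 5WT. The margin was not met evenly by the mirror-image bins: the 759 gained bins had means of 69.6% and 72.8% in 8WT and 14WT_IIS, but 54.7% in 14WT, 59.7% in 18WT and 33.7% in 14FRA_WT, against 19.9% in 5WT. The difference between eroded and gained bins in how far they held was not tested.

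The knockout lists were also high at GD5.5, and their later levels lay above those of the controls. Mean levels were 75.2% (SD 21.5) in 5KO, 54.9% (SD 29.9) in 8KO, 53.4% (SD 27.5) in 14KO_IIS, 49.3% (SD 31.9) in 14KO, 38.7% (SD 31.2) in 18KO and 48.5% (SD 30.6) in 14FRA_KO. In 5KO, which the rule did not use, 530 of the 580 bins were at 40% or more, or 91.4%, close to the 88.7% of bins at 40% or more in 5WT. All of 5KO, 8KO and 14KO_IIS were at 40% or more in 328 bins (56.6%), above the 36% of all tested bins and below the 81.5% of bins at 40% or more in 5WT.

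The fall of the control lists recurred in part. 5KO exceeded 8KO by at least 40 points in 120 bins (20.7%, against 0.53% of all tested bins) and 14KO_IIS in 111 (19.1%, against 0.999%). Both margins were met in 53 bins, or 9.14%, against 0.141% of all tested bins and 0.334% of the 69528 bins at 40% or more in 5KO. Without a margin, 5KO was above both later lists in 414 bins (71.4%), against 22.4% of all tested bins, and below both in 34 (5.86%, against 24.7%). The mean of 5KO minus 8KO was 20.3 points (SD 22.9, median 16.2) and of 5KO minus 14KO_IIS 21.8 points (SD 22.7, median 18.4), which are smaller than the 51.9 and 58.5 points of the controls, where the rule set a floor of 40. Over all tested bins the same knockout differences averaged -1.23 and -0.25 points. Against the implantation-site lists, 5KO was higher by 25.9 points (SD 30.4) than 14KO and by 36.5 points (SD 29.2) than 18KO, the lowest of the knockout lists.

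By when the margin was met in the knockouts, the bins fell into 4 sets. In 53 it was met in both 8KO and 14KO_IIS. In 67 it was met in 8KO alone, with means of 76.9% in 5KO, 22.1% in 8KO and 53.9% in 14KO_IIS. In 58 it was met in 14KO_IIS alone, with 83.9% in 5KO, 68.1% in 8KO and 24.3% in 14KO_IIS. The remaining 402, or 69.3%, met it in neither, with 73.6%, 63.3% and 61.8%. The implantation-site lists, which did not define these sets, differed between them: 14KO averaged 18.1% in the first set, 41.01% in the second, 18.7% in the third and 59.2% in the last, and 18KO averaged 9.03%, 24.0%, 15.7% and 48.4%. The control list 14WT went the same way, with 3.25%, 16.8%, 4.79% and 22.5%.

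The rule applied to the knockout lists alone chose 232 bins, of which 53 were eroded in the controls, 22.8% of the 232 and 9.14% of the 580. In the control lists, which had no part in their choice, these 232 bins averaged 37.5% (SD 26.3) in 5WT, 12.3% in 8WT and 8.04% in 14WT_IIS. 5WT was above both in 191 of them (82.3%). Over all tested bins, 5WT was above 8WT in 35.7% and above 14WT_IIS in 30.1%. Their levels in 14WT, 18WT and 14FRA_WT were 8.06%, 8.59% and 7.54%. In 14KO, 18KO and 14FRA_KO, which also had no part in the choice, they were 23.9%, 15.5% and 22.2%.

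Knockout minus control over the eroded bins was 4.69 points (SD 19.7) at GD5.5 IIS. It was 36.3 points (SD 27.4) at GD8.5 IIS and 41.4 points (SD 24.5) at GD14.5 IIS, where the control list was chosen to be low; 273 and 315 bins met the 40-point margin there, against 4.39% and 3.71% of all tested bins. In the implantation-site pairs, which the rule did not use, the difference was 31.01 points (SD 25.3) for 14KO minus 14WT, 22.2 points (SD 24.3) for 18KO minus 18WT and 30.3 points (SD 25.5) for 14FRA_KO minus 14FRA_WT. All tested bins averaged 4.56, 1.76 and 8.42 points in these pairs. The margin was met by 212 bins (36.6%, against 5.47%), 130 bins (22.4%, against 4.32%) and 199 bins (34.3%, against 6.66%). The knockout list was the higher in 491, 428 and 487 of the 580 bins (84.7%, 73.8% and 84%, against 49.2%, 42.9% and 55.1% of all tested bins) and the lower in 27, 59 and 47. It was higher in all 3 pairs in 374 bins (64.5%, against 24.5% of all tested bins) and by the margin in all 3 in 79 (13.6%, against 1.7%), and lower in all 3 in 3 bins (0.517%, against 8.96%). The Pdgfra-Cre pair used its own control list; whether its difference is unlike that of the Pgr-Cre pair was not tested.

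Most eroded bins stood alone. They formed 470 runs, of which 389 were single bins, 62 had 2 bins, 14 had 3, 2 had 4, 1 had 5 and 2 had 6. Within 100 kb of another eroded bin lay 337 of the 580. In 5WT both neighbouring bins were at 40% or more for 200 of them, 1 neighbour for 261 and neither for 119; in 14WT, which the rule did not use, the counts were 47, 154 and 379. In 5KO, both neighbours were at 40% or more for 306. Of all tested bins, 39.6% were at 40% or more in 5WT, 41.8% in 14WT and 42.4% in 5KO. Runs, spacing and neighbours were not counted for other bins, so these counts have no background. The mean level 10 kb away was 48.8% and 46.8% on the lower- and higher-coordinate sides in 5WT, 21.5% and 20.3% in 14WT, 61.1% and 59.6% in 5KO and 44.2% and 42.4% in 14KO. At 200 kb the means were 28.91% and 31.04% in 5WT and 26.5% and 27.3% in 14WT.

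**Figure D2:**
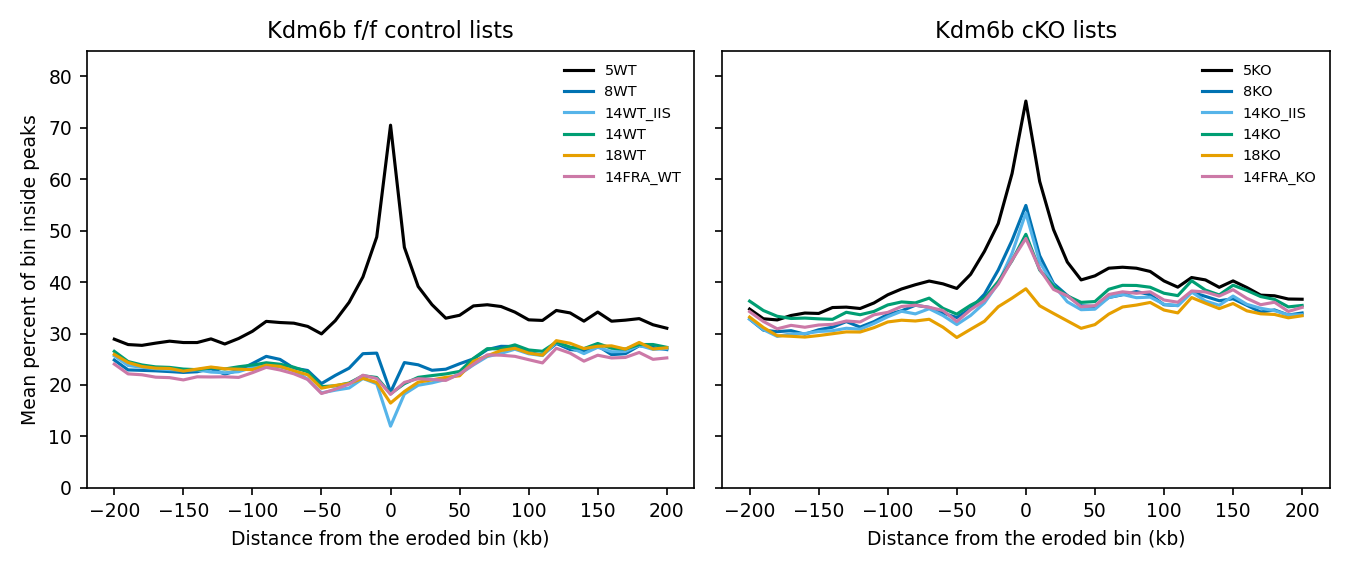
Mean percent of 10-kb bins inside peaks from 200 kb before to 200 kb after the 580 eroded bins, by list, controls in the left panel and knockouts in the right. In the controls only 5WT peaks at the centre (70.5%), whereas every knockout list keeps a central rise, from 38.7% in 18KO to 75.2% in 5KO.

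The peaks over the eroded bins were weak, as were all peaks of these lists. In 5WT, 1747 peaks overlapped them, with a median fold over background of 1.17 (1.14 over all autosomal peaks), a median length of 1828 bases (1078 over all) and a highest fold of 1.87, as given in the authors' lists. None of these 1747 reached a −log10 q of 2. In 5KO, 1479 peaks overlapped them, with a median fold of 1.19, a median length of 2138 bases and 1 at a −log10 q of 2 or more. In 14WT_IIS, 747 peaks remained over them, with a median length of 851 bases.

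By chromosome, the share of tested bins that eroded ran from 0.134% on chromosome 16 to 0.558% on chromosome 17 and 0.530% on chromosome 11. Protein-coding gene spans of RefSeq held 277 of the 580 (47.8%), against 38.1% of all tested bins and 41.3% of bins at 40% or more in 5WT. The median distance to a start site was 55.5 kb, against 63.9 kb for bins at 40% or more in 5WT and 102 kb over all tested bins. The annotation used gives gene spans without exons, so exonic and intronic position are not given.

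Bins inside and outside gene spans had like levels in 5WT. Bins outside were higher in the later controls and in the knockouts, with a wider gap in points in the knockouts. In 5WT their means were 70.0% and 71.04%, in 5KO 70.6% and 79.4%, and in 14WT 14.53% and 21.75%. In 18WT they were 13.0% and 19.7%, and in 14FRA_WT 14.4% and 21.6%. In 14KO the means were 36.2% (SD 30.4) inside and 61.3% (SD 28.3) outside, in 18KO 26.6% and 49.8%, and in 14FRA_KO 37.1% and 58.9%. At 40% or more in 14KO were 120 of 277 bins inside spans (43.3%) and 231 of 303 outside (76.2%). The share was 47.8% of all tested bins, above that inside spans, and 90.4% of bins at 40% or more in 5WT. Knockout minus control averaged 21.7 points inside and 39.5 outside for the GD14.5 IS pair, 13.6 and 30.1 for GD18.5 and 22.7 and 37.3 for the Pdgfra-Cre pair. Among all bins at 40% or more in 5WT, the 14KO means inside and outside spans were 74.4% and 74.9%. The fall recurred by the margin in both knockout lists in 37 of the 277 (13.4%) and 16 of the 303 (5.28%).

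**Figure D3:**
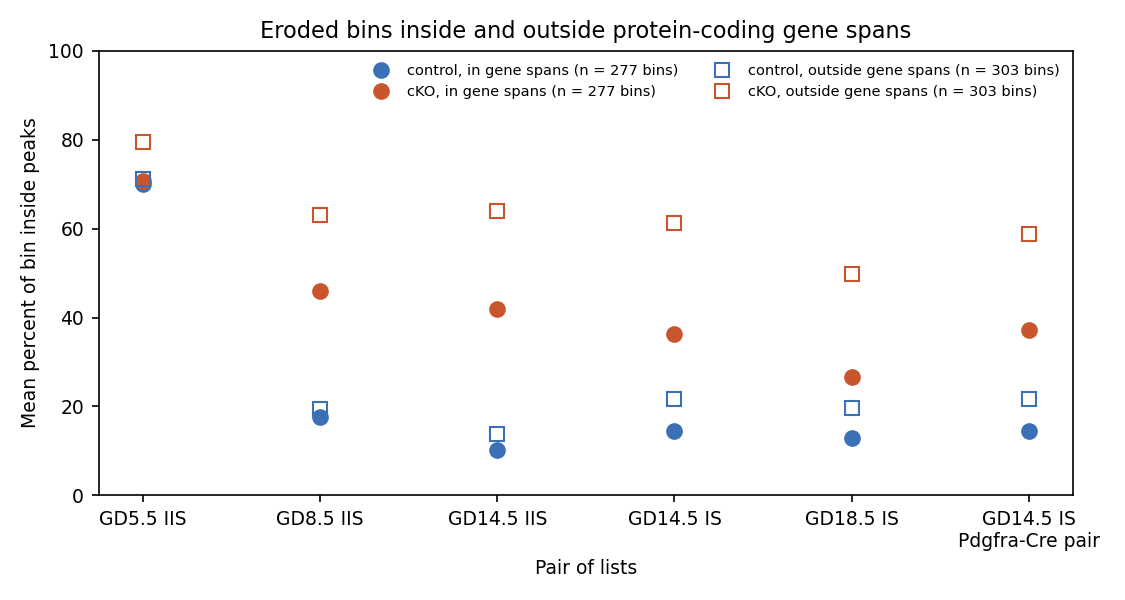
Mean percent of the bin inside peaks in 6 pairs of lists for eroded bins inside (filled circles) and outside (open squares) protein-coding gene spans, controls in blue and knockouts in orange. Control means of the 2 sets lie within 10 points of each other in each pair, while the knockout mean outside spans is above that inside in every pair, 79.4% against 70.6% at GD5.5 and 61.3% against 36.2% at GD14.5 IS.

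The 580 bins overlapped 186 of 20665 autosomal protein-coding genes (0.9%), 49 of them with 2 or more bins. An overlap of any length counted. A bin can thus lie mostly outside its gene, as do those of Cacna1g and Fkbp5 and the start-site bin of Greb1. The 186 were long genes, with a median span of 107 kb against 17.5 kb over all. The share with an eroded bin was 0.163% of genes under 10 kb and 5.63% of genes over 300 kb. Per bin of gene span the shares were 0.115% and 0.223%.

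Among genes of steroid signalling and progesterone response, 3 of 21 on the list lay over an eroded bin (14.3%, against 0.9% of all genes): Zbtb16, Greb1 and Fkbp5. Their spans are long, and per bin of span the list had 7 eroded of 195, against 289 of 120866 over all genes. Zbtb16 (chromosome 9, 48651797 to 48836225) encodes the zinc finger repressor PLZF, a progesterone-induced gene of the endometrial stroma. Its 3 adjacent eroded bins, 48670001 to 48700000, had 56.9%, 57.5% and 64.7% coverage in 5WT and 0 in all 5 other control lists. In 5KO they had 94.7%, 93.8% and 100%, in 8KO 77.5%, 61.6% and 80.2%, and in all 4 later knockout lists 0. The loss seen at GD8.5 in the control list was thus seen at GD14.5 in the knockout lists. In the B6CBAF1/J set the 3 bins averaged 97.1% in USC-0, 0 in MSC-5 and MSC-V-5 and 2.30% in USC-P4.

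Greb1 (chromosome 12, 16670615 to 16801394), a target of estrogen and progesterone receptors, held 3 eroded bins, 1 of them with its start site. The other 2, at 16730001 to 16750000, had 44.8% and 40.1% in 5WT and 0 in all 5 other controls, but were already low in 5KO, with 7.69% and 23.9%. The bin with the start site, 16800001 to 16810000, had 73.1% in 5WT and 4.84% to 13.2% in the other controls, and 54.0% in 5KO against 10.7% in 8KO, 5.57% in 14KO_IIS, 17.8% in 14KO, 0 in 18KO and 24.2% in 14FRA_KO. Fkbp5 (chromosome 17, 28398753 to 28486149) encodes a co-chaperone of steroid receptors. Its eroded bin at the lower-coordinate end had 67.1% in 5WT, 21.8% in 8WT, 17.9% in 14WT_IIS and 6.16%, 18.1% and 6.95% in 14WT, 18WT and 14FRA_WT. The knockout lists had 66.7%, 65.5% and 60.4% at the 3 IIS stages and 19.6%, 16.6% and 13.7% at IS. Over the whole Fkbp5 span, coverage was 47.1% in 5WT and 48.2% in 8WT, so the span as a whole did not fall between them. Span coverage was 55.1% in 5KO and 58.7% in 8KO, but 3.61% in 14WT and 0 in 14KO. In the IIS lists of GD14.5 it was 28.3% in 14WT_IIS and 15.6% in 14KO_IIS.

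Among decidual genes, 2 of 30 lay over an eroded bin (6.67%, against 0.9% of all genes), Fkbp5 and Lif. Per bin of span the list had 2 eroded of 131, against 289 of 120866 over all genes. Lif, the cytokine of implantation (chromosome 11, 4257568 to 4272514), had 51.8% in its bin in 5WT, 0 in 8WT, 14WT_IIS and 18WT, 10.4% in 14WT and 11.5% in 14FRA_WT. Its knockout values were 32.8% in 5KO, 0 in 8KO, 38.4% in 14KO_IIS, 45.3% in 14KO, 5.35% in 18KO and 33.7% in 14FRA_KO.

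Of 38 genes of contraction and parturition, 4 lay over an eroded bin (10.5%, against 0.9% of all genes): Cacna1g, Kcnn3, Cacna1c and Slco2a1. Per bin of span the list had 7 eroded of 341, 4 of them in Kcnn3, against 289 of 120866 over all genes. Cacna1c spans 610 kb and had 1 eroded bin of 62. Kcnn3, a calcium-activated potassium channel that damps uterine contraction, had 4 such bins, which averaged 54.3% in 5WT and 1% to 8.83% in the later controls. In the knockouts they averaged 51.9% in 5KO, 19.3% in 8KO, 29.9% in 14KO_IIS, 42.9% in 14KO, 32.7% in 18KO and 30.3% in 14FRA_KO. Over the whole Kcnn3 span, coverage was 1.84% in 14WT and 33.5% in 14KO. Cacna1g, a T-type calcium channel, had 75.5% in 5WT and 14.8% in 14WT in its bin, and 86.9% in 5KO and 30.1% in 14KO. That bin (94400001 to 94410000) lies mostly outside the gene, whose span starts at 94408391. Over the whole Cacna1g span, coverage was 16.3% in 5WT, 8.18% in 8WT, 1.69% in 14WT, 20.7% in 5KO and 9.23% in 14KO. In Cacna1c, the L-type channel of uterine muscle, the single bin went from 91.6% in 5WT to 50.4% in 8WT and 43.9% in 14WT and stayed at 67.9% to 100% in the knockouts. Slco2a1, the fourth of these genes, takes up prostaglandins and is given to complete the list. Its bin went from 91.1% in 5WT to 44.8% in 8WT and 34.8% in 14WT_IIS. It had 57.3% in 14WT, 20.1% in 18WT and 66.8% in 14FRA_WT, and 78.5% to 100% in the knockouts.

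The 15 genes with the most eroded bins were mostly long genes. Gse1, found with histone deacetylase complexes, had 8 bins, Tenm4 (a teneurin) and Slit3 (a secreted Robo ligand) 7 each, Srgap1 (a partner of Robo receptors) 6, and Mtss1, Sulf2 and Lgr6 5 each. Mical3, Ccdc88c, Clmp, Kcnn3 and Pde10a had 4, and Igsf3, Tgfbi and Zbtb16 had 3. By the mean over each gene's bins, the 40-point margin was met in both later knockout lists by Clmp and Pde10a, in 8KO alone by Gse1, Sulf2 and Mical3, in 14KO_IIS alone by Tenm4, Slit3, Srgap1, Lgr6 and Zbtb16, and in neither by Mtss1, Ccdc88c, Kcnn3, Igsf3 and Tgfbi.

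**Figure D4:**
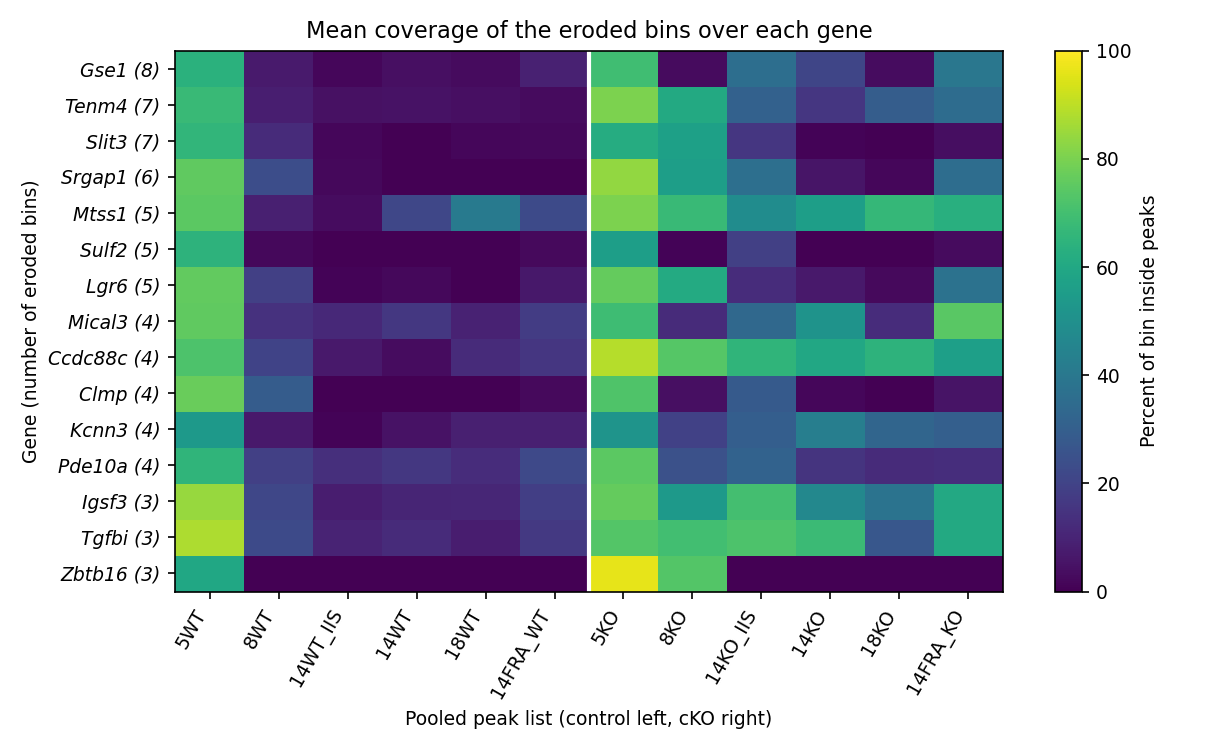
Mean percent of the eroded bins inside peaks for the 15 genes with the most such bins (number in brackets), in the 6 control lists on the left and the 6 knockout lists on the right of the white line. Control values after 5WT are at most 29.1% (Clmp in 8WT) except for Mtss1 in 18WT (41.3%), while the knockout columns range from 0 (Zbtb16 in 14KO) to 74.4% (Mical3 in 14FRA_KO) after 8KO.

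Sulf2, a sulfatase that trims extracellular heparan sulfate, showed the same early loss in both genotypes: 64.5% in 5WT and 2.02% in 8WT, and 56.2% in 5KO and 0.87% in 8KO, with 18.96% in 14KO_IIS and 0 in 14KO, 18KO, 14WT and 18WT. Clmp, a cell-adhesion molecule of the immunoglobulin superfamily, had 72.6% in 5KO and 4.02% in 8KO. In Gse1 the knockout lists did not keep 1 direction: 69.4% in 5KO, 2.95% in 8KO, 36.1% in 14KO_IIS, 20.7% in 14KO, 3.24% in 18KO and 39.5% in 14FRA_KO, against 1.90% to 9.06% in the later controls. Lgr6, an R-spondin receptor, went from 76.4% in 5KO to 61.2% in 8KO and 12.6% in 14KO_IIS, and Slit3 from 62.0% to 56.7% and 16.0%; in the controls Lgr6 was already at 18.9% and Slit3 at 12.3% in 8WT.

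Tgfbi, an extracellular matrix protein induced by TGF-beta, stood at the other end. Its 3 bins cover nearly all of its span (chromosome 13, 56609586 to 56639359). They averaged 87.9% in 5WT, 22.3% in 8WT, 9.93% in 14WT_IIS, 12.3% in 14WT, 7.84% in 18WT and 16.7% in 14FRA_WT. The knockout lists had 73.1% in 5KO, 69.6% in 8KO, 72.01% in 14KO_IIS, 68.35% in 14KO, 27.1% in 18KO and 60.6% in 14FRA_KO, so that only 18KO approached the controls. Ccdc88c, a Dishevelled-binding protein gene, had 88.7% in 5KO and 56.3% to 73.8% in the 5 later knockout lists, against 3.33% to 19.9% in the 5 later controls. Mtss1, an actin- and membrane-binding protein gene, was the one among the 15 in which a later control list came back above 40%, with 21.4% in 14WT and 41.3% in 18WT.

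The longest runs had 6 bins. One lay over the higher-coordinate end of Mtss1 and beyond it on chromosome 15 (59040001 to 59100000). The other lay inside Tenm4 on chromosome 7 (96350001 to 96410000). The Mtss1 run averaged 77.1% in 5WT, 9.79% in 8WT, 2.72% in 14WT_IIS and 20.3%, 41.5% and 27.2% in 14WT, 18WT and 14FRA_WT, and 53.3% to 80.3% in the 6 knockout lists. The Tenm4 run averaged 70.6% in 5WT and 3.34% to 8.35% in the 5 other controls, and 83.1%, 61.7%, 28.4%, 17.4%, 26.9% and 39.2% in 5KO, 8KO, 14KO_IIS, 14KO, 18KO and 14FRA_KO. A run of 5 bins on chromosome 4 (84060001 to 84110000) lay outside protein-coding genes, 157 kb from Ccdc171, with 73.3% in 5WT, 0.26% in 14WT, 70.0% in 5KO and 26.1% in 14KO. A run of 4 on chromosome 2 (166410001 to 166450000) was 116 kb from Gm30733 and kept 71.6% in 8KO and 73.3% in 14KO_IIS, against 16.8% and 5.82% in the matching controls. The other run of 4 was that of Ccdc88c.

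The bins with the largest control fall lay near or in Foxo1, Pim1, Tgfbi, Sulf2 and Slk. The bin 170 kb from Foxo1, a transcription factor gene of decidual cells (chromosome 3, 52520001 to 52530000), had 88.2% in 5WT and 0 to 6.1% in the other controls, and 100% in 5KO and 8KO, 82.0% in 14KO_IIS, 71.3% in 14KO, 45.3% in 18KO and 58.0% in 14FRA_KO. The Foxo1 span itself held no peak in any of the 12 lists. The bin 40.8 kb from the kinase gene Pim1 kept 88.8% in 8KO and 57.5% in 14KO_IIS, and had 0 in 14KO, 18KO and 14FRA_KO as in their controls. The bin 10 kb from the kinase gene Slk went from 85.9% in 5WT to 4% in 8WT and 0 in 14WT_IIS and 14WT, with 27.4% in 18WT, and had 89.8% in 5KO, 68.5% in 8KO, 66.6% in 14KO_IIS, 65.6% in 14KO and 33.7% in 18KO.

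The 10 eroded bins with the largest knockout fall, counting only those that kept the margin when all lists covered the same length, lay in S100a3, Pde10a, Srgap1, Mical3, Slc7a7, Ndufa4 with Phf14, and Col4a3, and near Slc25a54, Gja1 and Rapgef3. Bins with a fall as large that did not keep 40 points there, such as a Sulf2 bin with 61.1 points, are not among them. In the S100a3 bin, 5KO had 92.3%, 8KO 26.6% and 14KO_IIS 11.8%. In the Pde10a bin (chromosome 17, 8840001 to 8850000), which holds a start site of this cyclic nucleotide phosphodiesterase gene, the values were 88.2%, 10.5% and 24.2%, and 14KO, 18KO and 14FRA_KO had 0. In the bin shared by Ndufa4 and Phf14, whose start sites face apart there, they were 67.7%, 13.5% and 10.9%. Col4a3, a basement membrane collagen gene, had 95.3%, 24.5% and 41.3%.

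Of 78 interleukin and receptor genes 3 lay over eroded bins (3.85%; Il1rap, Il18r1 and Il31ra), of 376 solute carrier genes 7 (1.86%), of 42 collagen genes 2 (4.76%; Col4a3 and Col8a2), and of 90 developmental transcription factor genes 1 (1.11%), Wt1, against 0.9% of all genes. Per bin of span, 3 of 272 interleukin and receptor, 8 of 2346 solute carrier, 2 of 538 collagen and 1 of 258 transcription factor bins were eroded. Over all genes, 289 of 120866 were. The 4 of 43 UDP-glucuronosyltransferase and sulfotransferase genes (9.3%) are overlapping Ugt1a genes that share 1 bin. Il31ra, a cytokine receptor gene, had 72.4% in 5WT and 19.3% in 14WT, and 59.3% in 5KO and 85.05% in 14KO. Wt1, a stromal transcription factor gene, had 80.05% in 5WT, 36.6% in 8WT and 0 in 14WT, and 69.7% in 5KO, 0 in 8KO, 42.01% in 14KO_IIS and 0 in 14KO. None of 34 chemokine and inflammatory, 37 matrix, 55 Wnt, BMP, FGF and hedgehog, 39 Hox or 23 Polycomb and demethylase genes lay over an eroded bin, and 1 of 1104 olfactory receptor genes did (0.0906%). No difference between lists was tested, and gene length differs between them.

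In the B6CBAF1/J set, compared only within itself, the eroded bins averaged 60.1% (SD 31.02) in MSC-5, 49.2% (SD 33.4) in USC-0, 45.7% (SD 31.8) in MSC-V-5 and 49.7% (SD 33.9) in USC-P4, while all tested bins averaged 35.2% to 36.8%. MSC-5, the GD5.5 natural-mating list, was above USC-0 by 10.9 points (SD 31.8) and above MSC-V-5 by 14.4 points (SD 21.8). It was the highest of the 4 lists in 201 bins (34.7%, against 11.7% of all tested bins). It exceeded USC-0 by 40 points in 94 bins (16.2%, against 2.39%) and was lower by as much in 22 (3.79%, against 2.27%). In USC-0, 69 of the eroded bins were at 0 (11.9%, against 34.5% of all tested bins). MSC-5 came from IIS and the other lists of this set from uterus. The effect of site cannot be told apart from that of day, mating or treatment. No later stage of this strain is among the lists.

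Levels outside the rule changed with the size of the control fall. The 98 bins with a smaller control fall of 40 to 42 points averaged 20.98% in 14WT, 72.3% in 5KO and 53.3% in 14KO, and the 111 bins just outside, with 38 to 40 points, averaged 25.1%, 65.2% and 52.4%. The 81 bins with a smaller control fall of 60 points or more averaged 10.65%, 81.9% and 41.7%. In 5WT these sets averaged 63.4%, 63.5% and 79.7% in the same order. The starting level thus differed between them, and its part in the other levels was not tested. Each list was also reduced to its peaks of lowest p up to 487 Mb, and the levels of the bins in these reduced lists were added after the data had been seen. There the 580 bins averaged 47.9% in 5WT and 2.96% to 9.22% in the later controls, and 59.47%, 35.82%, 35.01%, 30.97%, 21.9% and 29.22% in 5KO, 8KO, 14KO_IIS, 14KO, 18KO and 14FRA_KO. The peak names of 14WT and 14KO carry a version mark that those of the 10 other lists of the set lack, and its part in their values was not tested. In pooled cells, a loss in all cells and a change in the mix of cells cannot be told apart.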

How the data were processed

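Broad peaks of H3K27me3 CUT&RUN were the only data used. The submitters' processing notes name the mm10 build, STAR 2.7.5c, samtools 1.10, bedtools 2.29.1, bedGraphToBigWig 2.8 and macs2 2.2.7.1, without saying which step each served. Each deposited list pools the 3 samples of a group. The deposited lists give each peak's fold over background as a ratio, and its −log10 p and −log10 q as written by the authors' peak caller; depth per sample: not given in the sources used here.

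Peaks on chromosomes 1 to 19 were merged per list and the percent of each 10-kb bin inside them was computed with python 3.11.15, numpy 2.4.6 and pandas 2.3.3. Tested bins held a peak in any of the 12 lists of the Kdm6b set. Bins and gene spans are 1-based mm10. The bin code was tested on simulated data. Genes and promoters came from RefSeq (GRCm38.p6); 16457 of 20665 autosomal protein-coding genes (79.6%) had a tabulated promoter, so promoter shares over all genes leave out the rest; none lies on chromosome 18.

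The bins, gene lists and rules were chosen with earlier results of these data known. Named genes are the 15 with the most eroded bins, those in or nearest the 5 longest runs, those over the 10 bins with the largest knockout fall among bins that keep 40 points at equal covered length, those over the 5 bins with the largest control fall, and up to 3 per gene list; others are said to be picked after their values were seen. Alternatives were equal covered length, stricter p and q, closed gaps, other margins and bins, and 1 later list alone. The other 32 samples were not analysed here.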

Additional observations from a re-analysis of the deposited data

How the results depend on the processing

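No paired analysis was possible because each group is 1 pooled list. The number of eroded bins depended on every setting but the bin offset (558 bins when shifted by 5000 bases): 1553 at equal covered length (298 of them among the 580), 2247 with peaks at a −log10 p of at least 1, 52 with a −log10 q of at least 2, 1063 with gaps of up to 1000 bases closed, 1419 at a margin of 30 points, 232 at 50 points, 2598 in bins of 5000 bases, 123 in bins of 20000 bases, 1182 against 8WT alone and 1697 against 14WT_IIS alone.

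The share that recurred in the knockout lists, 9.14% (exact 95% interval over bins 6.92% to 11.8%, which treats bins as independent), left that interval at −log10 q of 2 (3.85%, 2 of 52 bins), at 50 points (6.47%) and with 14WT_IIS and 14KO_IIS alone (12.9%). The shares that held in 14WT, 18WT and 14FRA_WT were 64.4%, 67.5% and 57.5% at equal covered length, 63.4%, 68.4% and 62.6% at −log10 p of 1, 43.9%, 46.2% and 50.5% against 8WT alone, 60.6%, 69.1% and 63.6% against 14WT_IIS alone, and 86.2%, 88.6% and 82.9% in bins of 20000 bases. With gaps closed, 14WT had 70.7% and 18WT 73.5%; in bins of 5000 bases they had 66.5% and 66.9%. At 30 points 18WT had 73.3%. At −log10 q of 2, 14WT had 57.7% and 14FRA_WT 26.9%.

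Settings added after seeing the data gave, for knockout above control by 40 points, 28.2% (14KO) and 23.6% (14FRA_KO) at equal covered length and 21.3% and 22.2% at −log10 p of 1, with 18KO inside its interval. Genes over eroded bins numbered 186, or 198 with 2000 bases on either side. Of 62 alternative values, 39 moved outside the interval or by over 1.5 times; causes were not tested. The peaks lie near the caller's floor, which limits all levels.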
